A study of Rattus norvegicus with 16 samples.

Results

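Stathmins and the other axon growth proteins are the cytoskeletal proteins with which a neuron, or a cell of the neural crest lineage, builds and steers a process. The group described here holds 9 genes: the stathmins Stmn1, Stmn2 and Stmn4, the growth cone gene Gap43, the collapsin response mediator genes Crmp1 and Dpysl3, and the microtubule genes Dcx, Mapt and Tubb3. The members are every probe set of the array whose only gene symbol in the platform annotation is one of these names, which gave 16 probe sets of 31042 tested and 9 genes of 14217 with such a probe set. Stmn1, Stmn4 and Crmp1 had 1 probe set each, Stmn2, Gap43, Dcx, Dpysl3 and Tubb3 had 2 each, and Mapt had 3. A gene is represented by its brightest probe set, and the others are described beside it.

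Microtubules grow by adding tubulin dimers, and they shrink when the ends come apart. Stathmins bind free tubulin dimers and promote disassembly, while tau (Mapt) and doublecortin (Dcx) bind along the microtubule and stabilise it, and the collapsin response mediators carry guidance signals to tubulin and actin. Chromaffin cells of the adrenal medulla share their sympathoadrenal origin with sympathetic neurons, and many of them express such neuronal proteins without having axons.

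The study profiled adrenal tissue of rats with expression arrays, 1 array per RNA sample and 16 in all. Every rat is labelled as Sprague–Dawley white eye/Wistar–Kyoto, and the mutant animals are labelled p27Kip1 (Cdknb1) mutant, with no zygosity given. Hyperplasia of the medulla was taken from 8 mutants of 2 months, 4 labelled female and 4 male. Young wild type is 2 pools of medulla from rats of 2 months: a pool of 2 rats labelled male and a pool of 3 rats labelled female. Pheochromocytoma, a tumour of chromaffin cells, was taken from 3 mutants of 8 months labelled female and 1 of 9 months labelled male. Older wild type is a pool of 2 rats of 10 months labelled female and a pool of 2 rats of 12 and 17 months labelled male. The older pools therefore differ from each other in age and labelled sex, and both are older than the rats with tumours. Each pool averages its rats, so the spread between pools is not the spread between single animals; for several members the older pools still lay further apart than the tumours.

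Array medians lay between 6.51 and 6.61 (log2), and correlations within a group ran from 0.981 to 0.996. The level of Xist, which female cells transcribe to silence an X chromosome, went against the labelled sex on 6 arrays: 4 of the 8 hyperplasias and both young pools. Labelled sex was therefore left out of the fit. Of 12 chromaffin cell markers 11 were measured, and their mean ran from 12.99 to 13.14 in hyperplasia, from 12.86 to 13.00 in young wild type, 12.84 to 13.04 in pheochromocytoma and 12.31 to 12.81 in older wild type. Of 12 adrenal cortex markers 10 were measured, and their mean was lower in both lesions: 10.24 to 11.08 in hyperplasia against 11.45 to 11.61, and 10.17 to 11.50 in pheochromocytoma against 11.82 to 12.25. In whole tissue, fewer cells of a type and less RNA per cell cannot be told apart.

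Stmn1 and Stmn4 were higher in both mutant lesions than in wild-type medulla of the same age set, and Stmn2 passed on 1 of its 2 probe sets in hyperplasia and on both in pheochromocytoma. Values below are deposited log2 values, and a difference is in log2 units with its standard error from limma over all 16 arrays. A probe set passed the test, and is said to have risen or fallen, at an adjusted p under 0.05 over all 31042 probe sets. Of the 16 member probe sets, 4 rose and 0 fell in hyperplasia, where 7.4% of all probe sets passed, 4.32% higher and 3.08% lower. In pheochromocytoma 9 rose and 1 fell, where 14.3% of all passed, 8.31% higher and 5.95% lower. In hyperplasia 7 member probe sets lay wholly above the young pools and 1 wholly below, against 3046 and 2921 of all 31042. In pheochromocytoma 10 lay wholly above the older pools and 1 wholly below, against 6198 and 6168 of all 31042. With 2 pools per wild-type group such separation was common. By gene, Stmn1, Stmn4 and Crmp1 rose in hyperplasia, and these 3 together with Stmn2, Dpysl3 and Mapt rose in pheochromocytoma. Over all 14217 genes 5.42% rose and 3.47% fell in hyperplasia, and 9.66% rose and 7.1% fell in pheochromocytoma. The median difference of the 9 genes was 0.39 in hyperplasia and 0.76 in pheochromocytoma, against -0.01 and 0.005 over all 14217 genes. The members were chosen with earlier results of these data known, so these counts and medians are descriptions and no test of the group.

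**Figure D1:**
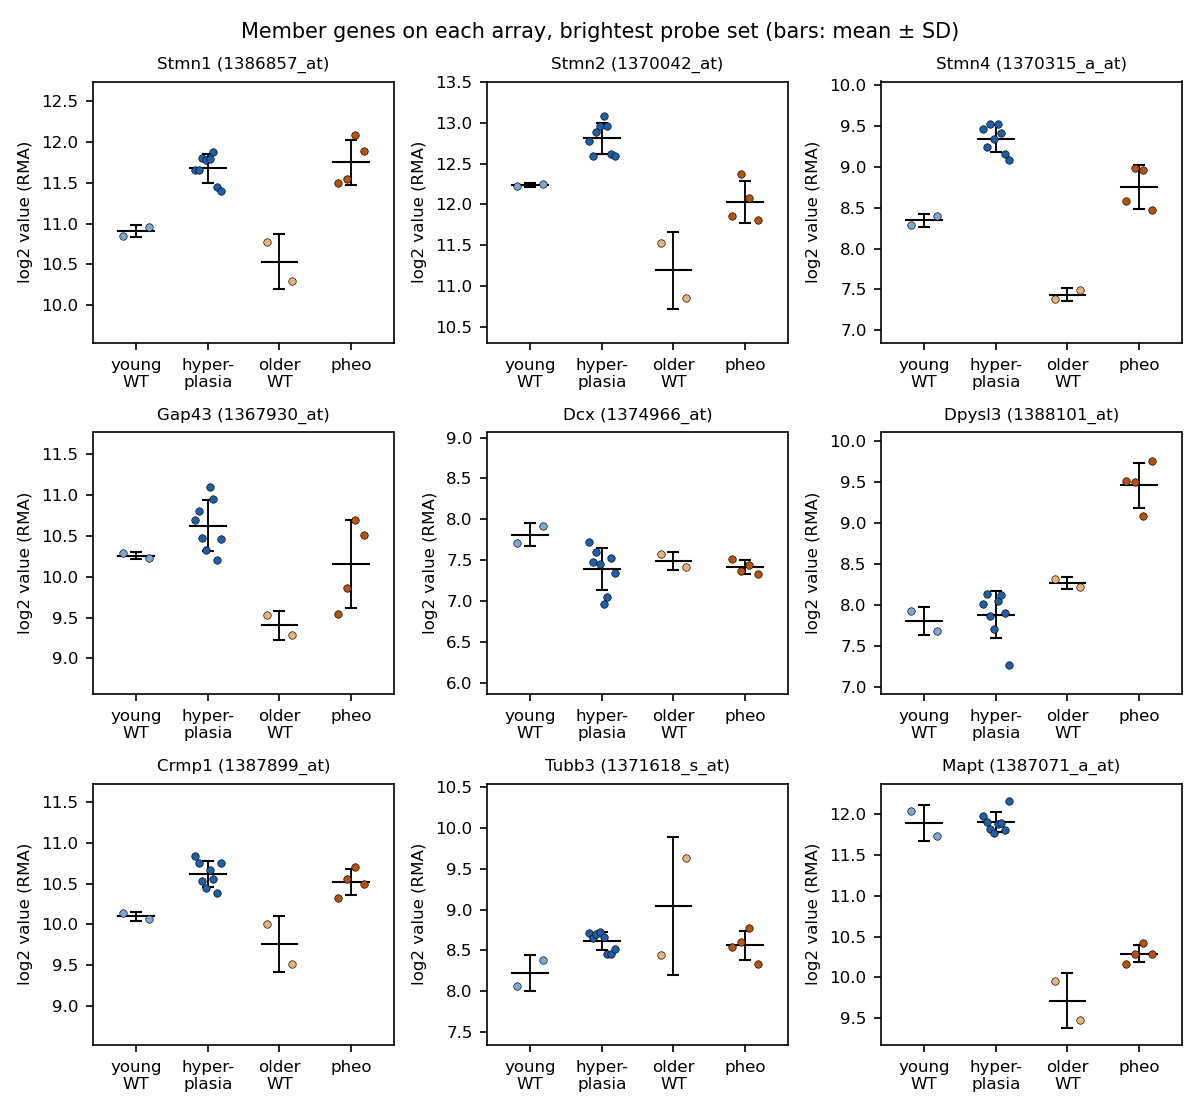
Log2 value of each member gene (brightest probe set) on each of the 16 arrays, by group; points are arrays, bars are the mean ± SD, every panel spans the same log2 range, WT is wild type and pheo is pheochromocytoma. Stmn1 and Stmn4 lie above their own wild-type pools in both lesions, Dpysl3 stands at 9.09 to 9.76 in pheochromocytoma and at most 8.32 elsewhere, and Mapt is lower in both older groups on this probe set.

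Stmn1 codes for stathmin itself, the member of its family made widely in dividing cells as well as in neurons. It was at 10.85 and 10.96 in the young pools and between 11.40 and 11.87, with a median of 11.72, on the 8 hyperplasia arrays. It was at 10.77 and 10.30 in the older pools and at 11.49, 11.54, 12.08 and 11.88 in the tumours. Neither lesion overlapped its wild-type group. The difference was 0.77 ± 0.16 in hyperplasia (adjusted p = 0.00969), a 1.7-fold difference with a 95% interval of 1.34 to 2.17. In pheochromocytoma it was 1.22 ± 0.18 (adjusted p = 0.000694), which is 2.32-fold with an interval of 1.79 to 3.02.

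Some genes of mitosis were higher in the same lesions. The mean of 21 measured mitotic genes ran from 6.27 to 6.87 in hyperplasia against 5.66 to 5.86 in the young pools, and from 6.04 to 6.77 in pheochromocytoma against 5.54 to 5.57 in the older pools. Of those genes 8 rose, 0 fell and 13 did not pass in hyperplasia, and 7 rose, 0 fell and 14 did not pass in pheochromocytoma. Hyperplasia arrays with and without Xist signal are described further on, a split made after the data were seen. The mitotic mean was lower with Xist, and Stmn1 was higher by 0.27 ± 0.09, which did not pass by limma (adjusted p = 0.0898). The part of cell division in the Stmn1 difference was not tested.

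Stmn2, also known as SCG10, is a membrane-anchored stathmin of neurons found in growth cones. On its brighter probe set, 1370042_at, it was at 12.22 and 12.26 in the young pools and between 12.59 and 13.08, with a median of 12.83, in hyperplasia. The groups did not overlap, but the difference of 0.57 ± 0.18 missed the threshold (adjusted p = 0.0614). The other probe set, 1370041_at, was at 11.03 and 11.15 in the young pools and between 11.74 and 12.35 in hyperplasia, and it rose by 0.99 ± 0.21 (adjusted p = 0.00877). So the 2 probe sets of Stmn2 agreed in direction and not in the call. In the tumours 1370042_at was at 11.86, 12.37, 12.08 and 11.81, against 11.53 and 10.86 in the older pools. It rose there by 0.84 ± 0.19 (adjusted p = 0.0101) and 1370041_at by 1.08 ± 0.23 (adjusted p = 0.0058). Every tumour lay above both older pools on both probe sets.

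Stmn4, or RB3, is another membrane-bound stathmin of the nervous system, and it had the smallest p of the members in both comparisons. It was at 8.29 and 8.40 in the young pools and between 9.08 and 9.53, with a median of 9.38, in hyperplasia. It was at 7.38 and 7.49 in the older pools and at 8.58, 8.99, 8.97 and 8.48 in the tumours. All 12 lesions lay above the wild-type pools of their own age set, a separation that was common among all probe sets, as given above. The difference was 1.00 ± 0.145 in hyperplasia (adjusted p = 0.000886), a 2-fold difference with an interval of 1.62 to 2.47, and 1.32 ± 0.16 in pheochromocytoma (adjusted p = 0.000212), 2.49-fold with an interval of 1.97 to 3.15. The remaining stathmin, Stmn3, is no member and was picked after its values were seen, and it differed by 0.10 ± 0.14 in hyperplasia (adjusted p = 0.715) and by 0.17 ± 0.15 in pheochromocytoma (adjusted p = 0.483).

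Crmp1, which codes for a tubulin-binding mediator of semaphorin signals, rose as well. It was at 10.14 and 10.06 in the young pools and between 10.38 and 10.84, with a median of 10.61, in hyperplasia. In the tumours it was at 10.33, 10.56, 10.70 and 10.50, against 10.00 and 9.51 in the older pools. Neither lesion overlapped its pools. The difference was 0.51 ± 0.14 in hyperplasia (adjusted p = 0.0345) and 0.76 ± 0.15 in pheochromocytoma (adjusted p = 0.00439), which is 1.43-fold and 1.7-fold.

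Stmn1 and Crmp1 rose in both lesions and Tubb3 passed in neither, so a promoter window of each of these 3 genes is shown as a description of the locus. RefSeq promoter windows (build GRCr8) were given for 5 of the 9 members: Stmn1, Crmp1, Tubb3, Dcx and Dpysl3. Each line gives the 250 bases before an annotated start, 5′ to 3′ in the direction of the gene, in lower case. Capitals mark matches on either strand to CACGTG (the E-box word), TTTGGCGC, TTTCGCGC, TTTCCCGC and TTTGCCGC (E2F words), CCAAT (the CCAAT box), GGGCGG (the GC box) and TATAAA (the TATA box). Stmn1 is at chr5:151964929-151965178 on the plus strand, Crmp1 at chr14:77780917-77781166 on the minus strand and Tubb3 at chr19:68365437-68365686 on the plus strand. The Crmp1 and Tubb3 windows border the annotated gene. The Stmn1 window lies inside the annotated gene, which spans 151964308 to 151970843, before a start within it.
Stmn1: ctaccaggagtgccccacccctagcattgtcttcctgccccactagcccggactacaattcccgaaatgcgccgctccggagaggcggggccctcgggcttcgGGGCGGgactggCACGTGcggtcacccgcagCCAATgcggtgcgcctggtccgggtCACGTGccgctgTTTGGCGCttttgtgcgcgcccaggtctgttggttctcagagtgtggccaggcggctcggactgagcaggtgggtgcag
Crmp1: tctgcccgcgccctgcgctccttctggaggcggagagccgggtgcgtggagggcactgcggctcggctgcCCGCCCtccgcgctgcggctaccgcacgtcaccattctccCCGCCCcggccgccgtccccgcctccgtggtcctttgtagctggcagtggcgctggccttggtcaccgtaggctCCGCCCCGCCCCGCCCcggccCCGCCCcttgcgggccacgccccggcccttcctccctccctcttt
Tubb3: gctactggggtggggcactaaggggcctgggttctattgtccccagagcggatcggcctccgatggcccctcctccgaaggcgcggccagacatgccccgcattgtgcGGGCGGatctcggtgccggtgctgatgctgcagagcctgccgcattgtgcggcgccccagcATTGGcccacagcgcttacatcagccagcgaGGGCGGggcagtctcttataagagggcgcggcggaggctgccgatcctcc

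The Stmn1 window held 2 E-box words, 1 E2F word, 1 CCAAT word and 1 GC box. The E-box words began 135 and 91 bases before the start used for this window, which lies within the gene, and the E2F word 79 bases before it. Of all 33469 RefSeq promoter windows of this length, 5.59% held CACGTG, 1.73% held any of the 4 E2F words, 34% held CCAAT, 30.5% held GGGCGG and 12.9% held TATAAA. The Crmp1 window held 6 GC boxes, some sharing bases, and none of the other words. The Tubb3 window held 2 GC boxes and 1 CCAAT word. A match is a description of these letters and not of a bound site.

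Dpysl3, which codes for the related mediator CRMP4, rose in the tumours. On its brighter probe set, 1388101_at, it was at 7.92 and 7.68 in the young pools and between 7.26 and 8.14, with a median of 7.96, in hyperplasia, so those groups overlapped. In the older pools it was at 8.32 and 8.21, and in the tumours at 9.51, 9.50, 9.09 and 9.76, each above every other array of the study. The difference was 0.08 ± 0.19 in hyperplasia (adjusted p = 0.863) and 1.20 ± 0.21 in pheochromocytoma (adjusted p = 0.00221), 2.29-fold with an interval of 1.68 to 3.14. The difference between the effects was 1.12 ± 0.29 and did not pass (adjusted p = 0.188), so the tumour effect was not shown to exceed that in hyperplasia. The dimmer probe set, 1391010_at, lay between 6.17 and 6.73 on all 16 arrays and differed by 0.06 ± 0.14 in pheochromocytoma (adjusted p = 0.83). The 2 probe sets of Dpysl3 therefore disagreed, and the tumour difference rests on one of them.

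Mapt, the gene of the axonal microtubule-binding protein tau, also rose in the tumours, on all 3 of its probe sets. The brightest, 1387071_a_at, was at 10.16, 10.29, 10.42 and 10.28 in the tumours and at 9.95 and 9.48 in the older pools, a difference of 0.57 ± 0.14 (adjusted p = 0.0137). The next, 1368137_at, was at 10.51 to 10.57 against 10.24 and 9.96, a difference of 0.45 ± 0.10 (adjusted p = 0.00704), and 1368138_at was at 10.19 to 10.27 against 9.98 and 9.59, a difference of 0.44 ± 0.14 (adjusted p = 0.0409). No tumour overlapped the pools on any of them, as for 6198 of all 31042 probe sets that lay wholly above the older pools. In hyperplasia the same probe sets differed by 0.01, -0.02 and -0.18, with adjusted p of 0.968, 0.943 and 0.417, and the 95% interval of the brightest was -0.26 to 0.29. The differences between the effects were 0.56, 0.46 and 0.63 and did not pass (adjusted p = 0.297, 0.218 and 0.237).

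Gap43, whose protein lines the inner membrane of growth cones, varied widely between lesions of one kind. Its brighter probe set was at 10.29 and 10.23 in the young pools and between 10.21 and 11.10, with a median of 10.58, in hyperplasia, where the groups overlapped. In the tumours it was at 9.55, 9.87, 10.70 and 10.52, above the older pools at 9.53 and 9.28, with tumour 1 only just above the first pool. The differences of 0.37 ± 0.26 (adjusted p = 0.435) and 0.75 ± 0.28 (adjusted p = 0.089) missed the threshold, with intervals of -0.18 to 0.92 and 0.15 to 1.35. The dimmer probe set of Gap43 was at 2.59 to 3.13, below the first quartile of every array, where signal over background was not shown.

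Dcx and Tubb3, often used as markers of young neurons, did not rise. Dcx was at 7.71 and 7.91 in the young pools, 6.97 to 7.72 in hyperplasia, 7.57 and 7.41 in the older pools and 7.33 to 7.52 in the tumours. Its differences of -0.42 ± 0.16 (adjusted p = 0.126) and -0.08 ± 0.18 (adjusted p = 0.811) did not pass. The dimmer Dcx probe set, 1387601_at, was the 1 member probe set that fell, by -0.41 ± 0.11 in pheochromocytoma (adjusted p = 0.0234), but it lay between 3.17 and 4.12 and below the first quartile of all 16 arrays. The brighter Tubb3 probe set, 1371618_s_at, of a type whose probes can match transcripts of more than one gene, was at 8.07 and 8.38 in the young pools and 8.46 to 8.72 in hyperplasia, a difference of 0.39 ± 0.20 (adjusted p = 0.276). It was at 8.34 to 8.78 in the tumours and at 8.44 and 9.64 in the older pools, which differed from each other by more than any other group of the study did on this probe set. The tumour difference of -0.48 ± 0.22 (adjusted p = 0.168) depended on which older pool was used, being 0.12 without pool 2 (adjusted p = 0.791) and -1.07 without pool 1, where it passed. The second Tubb3 probe set stayed below the first quartile on all 16 arrays.

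**Figure D2:**
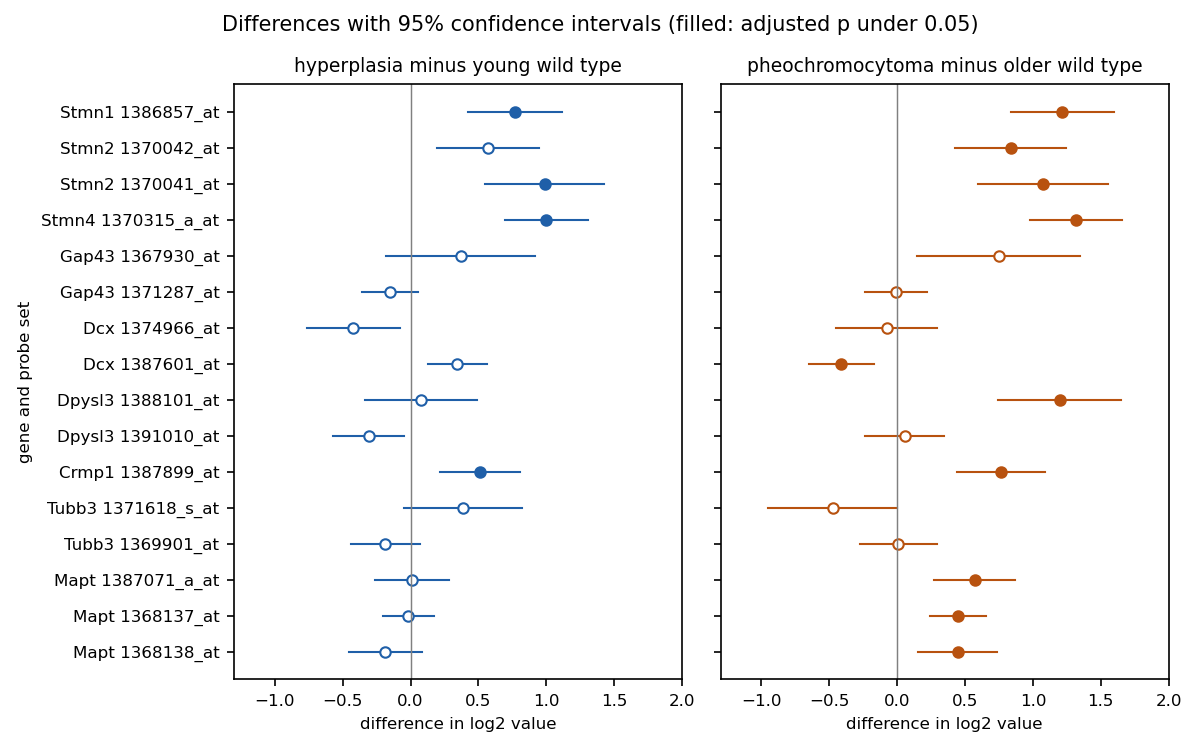
Difference in log2 value between each lesion and its wild-type group for the 16 member probe sets, with 95% confidence intervals from limma; filled points have an adjusted p under 0.05. Intervals of the stathmins and Crmp1 lie above 0 in both comparisons, while Dpysl3 1388101_at and the Mapt probe sets are near 0 in hyperplasia and above 0 in pheochromocytoma.

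No member effect was shown to differ between the lesions. Of the 16 member probe sets 0 passed the limma test of the difference between the effects, where 8 of 31042 probe sets passed (0.0258%, with 0.0193% higher and 0.00644% lower). For Stmn4 that difference was 0.32 ± 0.22, with an interval of -0.14 to 0.77 (adjusted p = 0.61), and for Stmn1 it was 0.45 ± 0.24, with an interval of -0.07 to 0.96 (adjusted p = 0.512). The interval for Crmp1 was -0.19 to 0.69. These intervals leave room for effects that differ by over 1.5-fold. Without an adjustment, 6 member probe sets and 3461 of all were under 0.05: those of Dpysl3 1388101_at, Dcx 1387601_at, Tubb3 1371618_s_at and the 3 of Mapt. Leaving out older pool 1 brought 5 member probe sets past the threshold, in a fit where 649 of all probe sets passed.

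The calls depended on single wild-type pools. In hyperplasia Stmn4 passed whichever of the 10 arrays compared was left out, at 0.95 to 1.05, and was the 1 member probe set that passed without young pool 2. Stmn1 and 1370041_at of Stmn2 missed the threshold without either young pool, at adjusted p of up to 0.103 and 0.0967, with differences of 0.72 to 0.82 and 0.93 to 1.05. In pheochromocytoma the count of 10 member probe sets was 2 without older pool 2, namely Stmn1 at 0.98 (adjusted p = 0.0333) and Stmn4 at 1.37 (adjusted p = 0.00648), and 11 without older pool 1. Crmp1 missed in hyperplasia without either young pool, hyperplasia 1 or hyperplasia 5, at 0.47 to 0.55 with adjusted p of up to 0.26, and in pheochromocytoma without older pool 2 it was 0.52 (adjusted p = 0.149). Dpysl3 1388101_at was 1.15 there (adjusted p = 0.0521), and 1368138_at of Mapt missed when any array other than older pool 1 was left out. The difference of 1387071_a_at of Mapt was 0.34 without older pool 2 and that of 1370042_at of Stmn2 was 0.50. The count of all probe sets was 596 without older pool 2, against 4425, and 564 in hyperplasia without young pool 2, against 2296.

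The fall of the cortex markers moved with these results. Of the 10 measured markers 3 fell and 0 rose in hyperplasia, and 8 fell and 0 rose in pheochromocytoma. With the mean of the cortex markers as a covariate, Stmn4 was the 1 member probe set that passed in hyperplasia, and 0 passed by limma in pheochromocytoma, where 67 of all 31042 probe sets passed. The differences in hyperplasia were then 0.47 ± 0.17 for Stmn1 and 0.43 ± 0.18 for Crmp1. In pheochromocytoma they were 0.77 ± 0.22 for Stmn1, 1.20 ± 0.23 for Stmn4 (adjusted p = 0.0542), 0.95 ± 0.31 for Dpysl3 1388101_at and 0.63 ± 0.22 for Crmp1. The cortex mean did not overlap between either lesion and its wild-type group, so this fit cannot tell lesion and cortex share apart. How much of each difference goes with the share of cortex in the sample was not tested. Of the 11 measured chromaffin genes 1 rose and 0 fell in hyperplasia, and 5 rose and 0 fell in pheochromocytoma, and they differed in both directions. Phox2a, a transcription factor of the sympathoadrenal lineage, rose by 1.02 and 0.81, and Ddc, Slc18a1, Gata3 and Hand2 rose in pheochromocytoma by 0.85, 0.73, 0.62 and 0.60. Pnmt, the enzyme that makes adrenaline, differed by -0.64 in hyperplasia (adjusted p = 0.0556) and -0.33 in pheochromocytoma (adjusted p = 0.321). Chga, Chgb, Th and Dbh each differed by at most 0.15 in either comparison. The part of the chromaffin share in the member differences was not tested.

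Markers of other cell types that the samples could hold were read on the same arrays. The mean of 9 measured Schwann and sustentacular markers (of 12 listed) ran from 7.06 to 7.45 in hyperplasia against 7.24 to 7.27 in the young pools, and from 6.98 to 7.10 in pheochromocytoma against 6.89 to 6.96 in the older pools. S100b, a marker of sustentacular cells, fell by 1.44 in pheochromocytoma (adjusted p = 0.00396), and Mbp and Sox10, markers of the Schwann lineage, rose by 0.88 and 0.68 there. All 12 markers chosen for ganglion neurons were measured, and their mean was 7.69 to 7.91 in hyperplasia against 7.58 to 7.69, and 7.06 to 7.61 in the tumours against 7.44 to 7.67. Of these 3 rose and 1 fell in hyperplasia, and 2 rose and 1 fell in pheochromocytoma. The cholinergic markers Chat and Slc5a7 were dim, below the first quartile on 4 and 9 of the 16 arrays. The mean of 12 fibroblast and pericyte markers did not overlap between lesion and wild type: it ran from 9.12 to 9.40 in hyperplasia against 9.07 to 9.11, and from 8.63 to 9.18 in pheochromocytoma against 8.36 to 8.43. Of these, Fbln1 rose by 1.48 and Pdgfra fell by 0.80 in hyperplasia, and in pheochromocytoma Rgs5, Fbln1 and Thy1 rose by 1.95, 0.94 and 0.87 and 0 fell. Of 12 macrophage and leukocyte markers 1 rose in hyperplasia, and of 11 measured endothelial markers 1 fell in pheochromocytoma; no others of these 2 lists and none of 4 measured erythroid markers passed in these comparisons by limma. The part of these cell types in the member differences was not tested.

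Within hyperplasia Stmn2 differed between the 4 arrays with Xist signal and the 4 without it, a split made after the data were seen and compared by limma on these 8 arrays. Of all probe sets 8.76% passed, and of the 16 member probe sets 2 did, both of Stmn2, a share near that background. Probe set 1370041_at was at 12.18 to 12.35 with Xist and at 11.74 to 12.13 without, a difference of 0.40 ± 0.10 (adjusted p = 0.0351), and 1370042_at at 12.89 to 13.08 and 12.59 to 12.78, a difference of 0.33 ± 0.09 (adjusted p = 0.0407). Stmn1 was at 11.78 to 11.87 with Xist and at 11.40 to 11.66 without, a difference of 0.27 ± 0.09 that missed the threshold (adjusted p = 0.0898). Stmn4 overlapped, at 9.34 to 9.53 with Xist and 9.08 to 9.46 without, a difference of 0.21 ± 0.10 (adjusted p = 0.223). The mitotic mean ran the other way, at 6.27 to 6.42 with Xist and 6.76 to 6.87 without. All 8 hyperplasia arrays stayed above the young pools for Stmn1, Stmn2 and Stmn4.

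**Figure D3:**
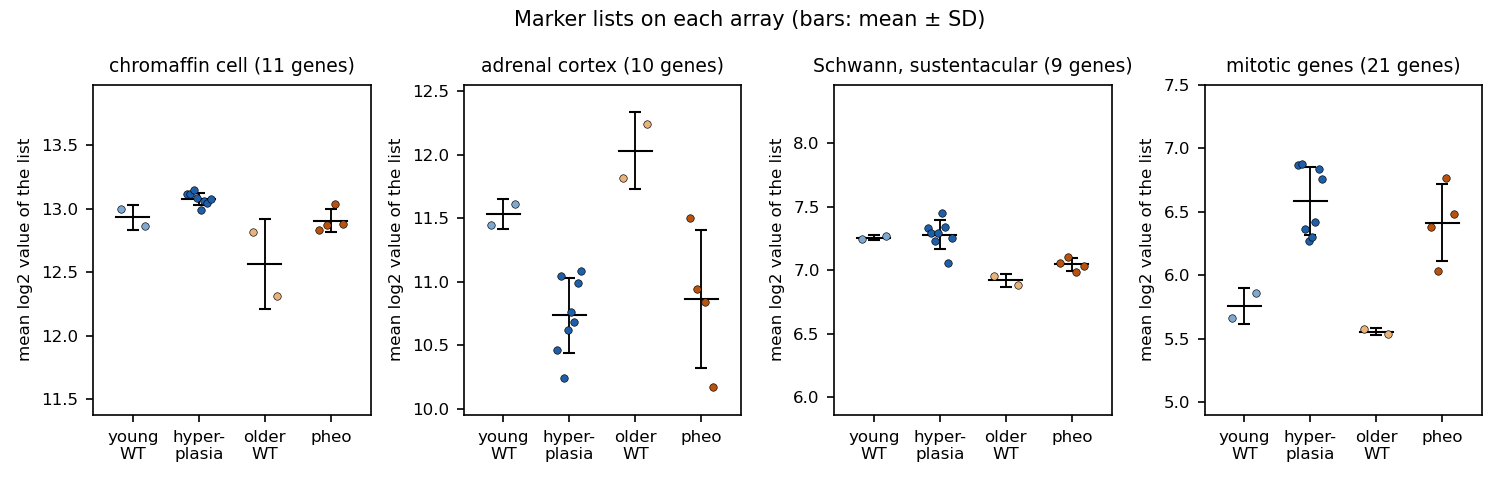
Mean log2 value of the measured genes of 4 marker lists on each of the 16 arrays, by group; points are arrays, bars are the mean ± SD over arrays, and every panel spans the same log2 range. The cortex mean is lower and the mitotic mean higher in each lesion than in its wild-type group.

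Most other genes connected with axon growth did not pass, and more of those that passed rose than fell. Of 82 listed relatives, regulators and partners of the members 77 were measured. In hyperplasia 13 rose, 0 fell and 64 did not pass, with a median difference of 0.12, and in pheochromocytoma 22 rose, 3 fell and 52 did not pass, with a median of 0.25. Over all 14217 genes 5.42% rose and 3.47% fell in hyperplasia, and 9.66% and 7.1% in pheochromocytoma.

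Among growth cone and adhesion genes 4 of 27 rose in hyperplasia and 9 rose and 1 fell in pheochromocytoma. L1cam, an adhesion molecule of growing axons, had the largest difference in both. It was 9.72 ± 0.30 (SD, n = 8) in hyperplasia and 7.82 in young wild type, a difference of 1.90 ± 0.21 (adjusted p = 0.000115), and in pheochromocytoma it differed by 2.11 ± 0.23 (adjusted p = 0.000119), 4.31-fold. Dbn1, the gene of the actin-binding protein drebrin, rose by 0.57 and 1.15. Ablim1 and the actin regulator Evl rose by 0.91 and 0.61 in hyperplasia, and Pcp4 and the neuritin gene Nrn1 by 1.41 and 1.03 in pheochromocytoma. Basp1, a growth cone membrane protein often studied with Gap43 and named here after its values were seen, differed by -0.16 ± 0.18 in hyperplasia and 0.20 ± 0.20 in pheochromocytoma (adjusted p = 0.672 and 0.54).

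Of 22 measured tubulins and microtubule-associated genes 4 rose in hyperplasia and 7 in pheochromocytoma, and 0 fell in either. Tppp3, a tubulin polymerisation-promoting protein, rose by 1.23 ± 0.20 and 1.77 ± 0.22 (adjusted p = 0.0021 and 0.000256). The broadly expressed tubulin Tubb5 rose by 0.82 and 0.67, and the microtubule-associated protein Map4 by 0.49 and 0.71. Map7 rose by 0.65 in hyperplasia, and Map6, which stabilises microtubules, by 0.50 in pheochromocytoma.

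Of 10 listed genes of the doublecortin, stathmin and collapsin response mediator families and of the LIS1 pathway, which doublecortin works with, 0 passed in hyperplasia by limma and 2 rose and 1 fell in pheochromocytoma. Those that rose were Dpysl5 at 0.69 ± 0.22 and Dpysl2 at 0.50 ± 0.13 (adjusted p = 0.0485 and 0.0151), and the one that fell was Pafah1b1, the LIS1 gene of the dynein pathway, at -0.62 ± 0.13 (adjusted p = 0.00484). In hyperplasia Pafah1b1 had the smallest p of the 10, at -0.31 ± 0.11 (adjusted p = 0.113). At an unadjusted p under 0.05 the count over the whole array was 7045.

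Of 18 measured kinases, RNA-binding proteins and transcription factors connected with axon growth 5 rose and 0 fell in hyperplasia and 4 rose and 1 fell in pheochromocytoma. Elavl4, an RNA-binding protein known to stabilise Gap43 RNA, rose by 0.87 ± 0.19 and 0.95 ± 0.21 (adjusted p = 0.0128 and 0.00861), while Gap43 itself did not pass. Klf7 and Sox4, transcription factors of growing neurons, rose by 1.06 and 1.15 in hyperplasia and by 0.91 and 0.77 in pheochromocytoma, and Elavl3 by 0.78 in hyperplasia. Jun fell by 1.25 in pheochromocytoma (adjusted p = 0.0149). Rest, the repressor of neuronal genes, also named after its values were seen, was dim, below the first quartile on 14 of the 16 arrays, and differed by -0.12 and -0.22 (adjusted p = 0.525 and 0.189).

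The young and the older arrays cannot be compared as simply, because probe sets of one gene disagreed between them. Older against young wild type, 1387071_a_at of Mapt was lower by 2.17 ± 0.16 (adjusted p = 3.21e-07), 1368137_at differed by -0.30 ± 0.11 (adjusted p = 0.066) and 1368138_at by 0.40 ± 0.16 (adjusted p = 0.0814). Pheochromocytoma against hyperplasia, the same 3 differed by -1.61 ± 0.10, 0.17 ± 0.07 and 1.02 ± 0.10 (adjusted p = 5.64e-09, 0.0637 and 5.19e-07), so 1 fell and 1 rose. For Stmn2, 1370042_at fell by 0.78 in pheochromocytoma against hyperplasia (adjusted p = 0.000256) and 1370041_at differed by -0.20 (adjusted p = 0.354). These comparisons share the wild-type or the lesion arrays with the first 2.

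The signal of the 3′ hexokinase control probe set minus that of the 5′ one, which grows as transcripts are degraded or copied short, was 1.065 to 1.64 on the 10 young arrays and 2.16 to 3.30 on the 6 older ones. Age and any difference in the handling of the arrays cannot be told apart. Within the young set this signal was 1.065 to 1.18 in wild type and 1.21 to 1.64 in hyperplasia, without overlap. Its part in the hyperplasia differences was not tested. Of all probe sets 23.7% passed between older and young wild type, 10.4% higher and 13.3% lower, and 40.7% between pheochromocytoma and hyperplasia, 20.4% higher and 20.3% lower. Of the 16 member probe sets 2 were higher and 3 lower in each. Stmn4 was lower in older than in young wild type by 0.91 ± 0.18 (adjusted p = 0.00221) and lower in pheochromocytoma than in hyperplasia by 0.59 ± 0.11 (adjusted p = 0.000532), and Dpysl3 1388101_at was higher in pheochromocytoma than in hyperplasia by 1.58 ± 0.15 (adjusted p = 5.55e-07). For these 2 genes no second probe set bears the difference out: Stmn4 has 1, and that of Dpysl3 differed by 0.14 ± 0.10 (adjusted p = 0.267).

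**Figure D4:**
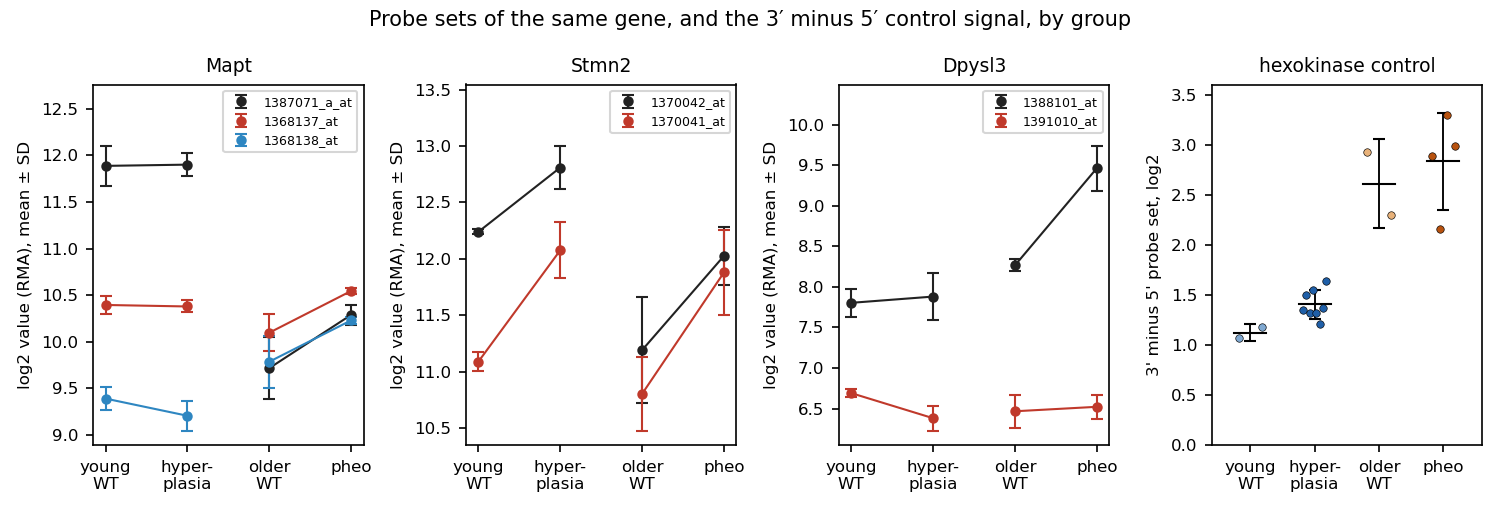
Mean ± SD of each probe set of Mapt, Stmn2 and Dpysl3 in the 4 groups (log2), with lines joining each lesion to its own wild-type group, and the hexokinase 3′ minus 5′ signal of each array (log2, bars are the mean ± SD). The step from the young to the older groups differs between probe sets of Mapt and of Stmn2, and the hexokinase signal is 1.065 to 1.64 on young and 2.16 to 3.30 on older arrays.

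The order of the group means differed between members. Stmn4 and 1370042_at of Stmn2 ran from hyperplasia (9.34 ± 0.17 and 12.81 ± 0.19, SD, n = 8) down to older wild type (7.44 ± 0.08 and 11.19 ± 0.47, n = 2), with pheochromocytoma second for Stmn4 and young wild type second for Stmn2. For Stmn1 pheochromocytoma (11.75 ± 0.28, n = 4) and hyperplasia (11.67 ± 0.17, n = 8) differed by less than their spread. Young and older wild type, at 10.91 ± 0.07 and 10.53 ± 0.34, did not overlap and did not pass (adjusted p = 0.207 by limma). Such separation was the usual outcome: of all 31042 probe sets, 9292 lay wholly higher and 9914 wholly lower in older than in young wild type. For Crmp1 hyperplasia (10.62 ± 0.16) and pheochromocytoma (10.52 ± 0.15) overlapped, and both wild-type groups lay below them at 10.10 ± 0.06 and 9.76 ± 0.34. Dpysl3 1388101_at was highest in pheochromocytoma (9.46 ± 0.28), then in older wild type (8.27 ± 0.07), with hyperplasia (7.88 ± 0.29) and young wild type (7.80 ± 0.17) overlapping.

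Over the 16 arrays Stmn2 and Stmn4 were the 2 members with the highest Pearson correlation, at 0.918, followed by Stmn1 with Crmp1 at 0.87. Dcx, Dpysl3 and Tubb3 stood apart, with correlations to Stmn1 of -0.40, 0.25 and -0.24. The genes most like each member, by the same measure, were Slit3 (0.982) and Slc10a4 (0.97) for Stmn4, A3galt2 (0.979) and Angpt2 (0.972) for Stmn2, Cstpp1 (0.961) and Slc29a1 (0.957) for Stmn1, and Nipal2 (0.961) and Slc7a14 (0.956) for Crmp1. For Mapt they were Mxd4 (0.988) and Shoc2 (0.983), for Dpysl3 Plekhh1 (0.943) and Myo5a (0.935), for Gap43 Gas8 (0.922) and Bms1 (0.92), for Dcx Rab39a (0.856) and Isl2 (0.816), and for Tubb3 Tiparp (0.907) and Ppp1r15a (0.844). The 16 arrays share the step between the young and older sets, so these are descriptions of the whole profile, with no test. Each member stands here by its brightest probe set. That of Mapt differed by -2.17 between older and young wild type, and its others by -0.30 and 0.40.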

How the data were processed

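Expression was measured on 16 arrays. The deposited log2 values were made by the authors with RMA, per the submitters' processing notes. Whether the young and older arrays were normalized in one run was not stated there. Of 31099 probe sets, 57 controls were left out and 31042 tested; the platform annotation gave 20826 of these a single symbol, 436 several and 9780 none.

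One limma fit (3.58.1, R 4.3.3) held the 4 groups as its only term, with 12 residual degrees of freedom. P-values were adjusted by Benjamini-Hochberg over all probe sets, with a threshold of 0.05. For each gene the brightest probe set, by its average over the 16 arrays, stands for the gene. The fit was tested on simulated data with the same spread in every group, so that test does not cover pools that vary unlike single animals.

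The members and the gene lists were chosen with earlier results of these data known. Named genes are all members, up to 4 genes per related list and comparison with the largest differences past the threshold, or the smallest p where none passed, and the 2 genes most correlated with each member. Motif words were chosen after the sequences were seen. The alternatives covered sex and Xist as covariates, the arrays fitted, variance moderation, a filter on dim probe sets, scaling, array weights, a block on replicate number, a cortex covariate, single arrays left out and gene means. Hyperplasia and pheochromocytoma samples are single animals and controls are pools, so p-values set spread between animals beside spread between pools. The number of arrays limits the precision.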

Additional observations from a re-analysis of the deposited data

How the results depend on the processing

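No member difference past the threshold changed sign under any alternative run; some that missed it did, among them Tubb3 1371618_s_at in pheochromocytoma, at -0.48 over all arrays and 0.12 without older pool 2. In hyperplasia 1370042_at of Stmn2 passed in 4 of 11 other settings, among them the Xist level as a covariate, at 0.58 (adjusted p = 0.0132 by limma). Its adjusted p was highest with the cortex covariate, at 0.457. The mean of both Stmn2 probe sets differed by 0.78 ± 0.19 in hyperplasia (adjusted p = 0.0162 by limma). Fitted on the compared arrays alone, 1915 probe sets and 4 of members passed between pheochromocytoma and older wild type, and 3770 probe sets between the wild-type groups. The difference of effects had 14 calls after quantile normalization, 3 after median centring, 1 with array weights and 2 with the cortex covariate. It had 1 call without the hyperplasias whose Xist level goes against the label. Between pheochromocytoma and hyperplasia, array weights called 8 of 16 member probe sets and 14545 of all 31042, against 5 and 12631 in the main fit. The member share with array weights was near that of all probe sets. The cortex covariate left 301 calls and 1 member call in hyperplasia, and 67 and 0 in pheochromocytoma. Without the Xist-discordant hyperplasias, 689 probe sets and 1 of members (Stmn4) passed in hyperplasia. Deviations of same-numbered samples correlated at -0.18 to 0.21. Samples with different numbers were not compared, and in groups of 2 arrays the deviations mirror each other, so this check cannot decide on pairing. With the replicate block, 556 probe sets and 1 of members passed in hyperplasia, 1593 and 4 in pheochromocytoma, and 0 for the difference of effects. Leaving out 1 array gave 564 to 2687 calls and 1 to 6 member calls in hyperplasia, 596 to 4781 and 2 to 11 in pheochromocytoma, 0 to 649 and 0 to 5 for the difference of effects, and 4500 to 5763 between the wild-type groups. A group left with 1 array is assumed to vary like the others. The cause of these changes in the counts was not tested. The dim probe sets of Gap43, Dcx and Tubb3 limit what can be read from them.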
